A study of Mus musculus with 18 samples.

Results

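The inflammatory and type 1 or 2 cytokine receptors described here are 10 receptor chains, chosen by symbol: Il1rl1, Il1r2, Il18r1, Il18rap, Il6ra, Il6st, Il10ra, Il12rb1, Il12rb2 and Ifngr1. Earlier results of these data were known when they were chosen, so counts of called chains below do not come from a list blind to the data. All 10 were found among the 15402 genes of the deposited expression table, and all 10 were among the 13190 genes tested. RNA-seq was performed on T cells from draining lymph nodes of female C57/BL6 mice carrying Foxp3Timer and Foxp3-IRES-GFP, aged 5 to 10 weeks in the study's methods, 5 days after 3% oxazolone had been put on the abdominal skin. Each of the 18 libraries came from a pool of 3 mice, with 3 libraries for each of 6 populations. The deposited design has the populations sorted from the same mice, so the libraries are not 18 independent pools. The fit reported below has no term for the pool. Every population, controls included, came from sensitised mice with both reporters. There was no unsensitised group.

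Timer is a fluorescent protein that is blue when newly made and matures irreversibly to red, so in these mice blue fluorescence follows current Foxp3 transcription and red fluorescence its history. Tnaive cells were CD4+, CD44lo, GFP- and Timer-. Teff cells were CD4+, CD44hi, GFP- and Timer-, and are labelled as activated effector T cells. The other 4 populations were CD4+ Timer+ cells separated by fluorescence. Pers1 cells had intermediate Blue and low Red, and Pers2 cells had high Blue and high Red. Together they are called the persistent populations here, since their labels give persistent Foxp3 transcription. PAt cells (labelled as quiescent Treg) had low Blue and high Red, and Arrested cells had no Blue and intermediate Red. The reporter shows transcription of Foxp3 and does not record which cytokines a cell has met.

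As background, these chains belong to a few receptor families. ST2 (Il1rl1, the IL-33 receptor) and the IL-18 receptor (Il18r1 with its accessory chain Il18rap) are IL-1 family receptors that signal through MyD88, whereas IL-1R2 (Il1r2) is a decoy that binds IL-1 and lacks the signalling domain. The other chains signal through Janus kinases and STAT proteins: Il6ra with the shared chain gp130 (Il6st) for IL-6, Il10ra for IL-10, Il12rb1 with Il12rb2 for IL-12 (Il12rb1 also serves IL-23), and Ifngr1 for interferon gamma. ST2 is well known on regulatory T cells of tissues, IL-18 and IL-12 receptors on type 1 cells, and the IL-6 receptor on naive T cells.

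Values are the authors' log2 normalised counts, in which 1 unit is a 2-fold difference in the deposited value. Their form is that of a regularised log, which draws changes of genes with few reads towards 0. Folds given here therefore need not equal ratios of counts. Log2 fold changes, standard errors (SE) and Benjamini-Hochberg adjusted p-values come from limma fitted across all tested genes. A gene is called higher or lower where the adjusted p was under 0.05 and the log2 fold change was over 1 in size. The sorted cells carried their lineage. The summed level of 8 T cell markers lay between 17.08 and 17.58 in all 18 libraries. Foxp3 was 14.42 to 14.82 in the means of the Timer+ populations, 11.34 in Tnaive and 10.54 in Teff, so it was not at 0 in the Timer- cells. The summed level of 6 regulatory T cell markers, Foxp3 included, was 14.59 to 14.79 in Teff and 12.28 to 12.36 in Tnaive. It was 16.26 to 17.18 in the Timer+ populations. Of the 6, 4 were called higher in Teff than in Tnaive and none lower. At an adjusted p under 0.05 without the fold limit, 5 were higher and 1 lower. Their part in the receptor values was not tested.

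The Teff libraries also held more RNA of markers of other cells. The summed level of 8 dendritic cell markers was 11.25 to 11.78 in Teff and 7.01 to 7.48 in all other libraries, led by Siglech at a mean of 10.62, and 1 of the 8 had a mean under 3 in Teff against 2 elsewhere. For 8 macrophage and monocyte markers it was 11.03 to 11.32 against 9.11 to 10.03, for 7 B cell markers 12.73 to 13.26 against 9.86 to 12.38, and for the 2 Cd8 genes 11.51 to 11.997 against 9.65 to 10.702. Of 8 mast cell and basophil markers, 4 were in the table and summed to 8.13 to 8.27 in Teff, led by Kit, and to 6.94 to 7.36 elsewhere. Of these 4, only 1 was called higher in Teff than in Tnaive. Another 2 were lower at an adjusted p under 0.05, under the fold limit, and the median log2 fold change of the 4 was -0.19. The 7 markers of NK and innate lymphoid cells in the table summed to 12.25 to 12.44 in Teff and to 12.59 to 12.76 in Pers2, where Rora led. Of these 7, Tyrobp, Klrb1c, Ncr1, Il17rb and Rora were called higher in Teff than in Tnaive and Eomes lower (-1.25). Of 8 neutrophil markers 3 were in the table, and their sum was 4.93 to 5.71 in all libraries. Among B cell markers PAt and Arrested (11.79 to 12.38) exceeded the persistent populations (11.23 to 11.44). The part of these markers in the receptor values below was not tested. In bulk RNA, fewer cells of a type cannot be told apart from less RNA per cell.

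The receptors followed several patterns over the populations. Il1rl1 and Il1r2 rose in the same order, from Tnaive through Teff, Arrested, PAt and Pers1 to Pers2. Il18rap, Il10ra and Il12rb1 were lowest in Tnaive and highest in both persistent populations, with Teff, PAt and Arrested between. Il6ra and Il6st ran the other way and were lowest in the persistent populations. Ifngr1 was highest in PAt and lowest in Teff, and Il12rb2 was highest in Teff. Il18r1 was lowest in Tnaive and differed little among the Timer+ populations.

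**Figure D1:**
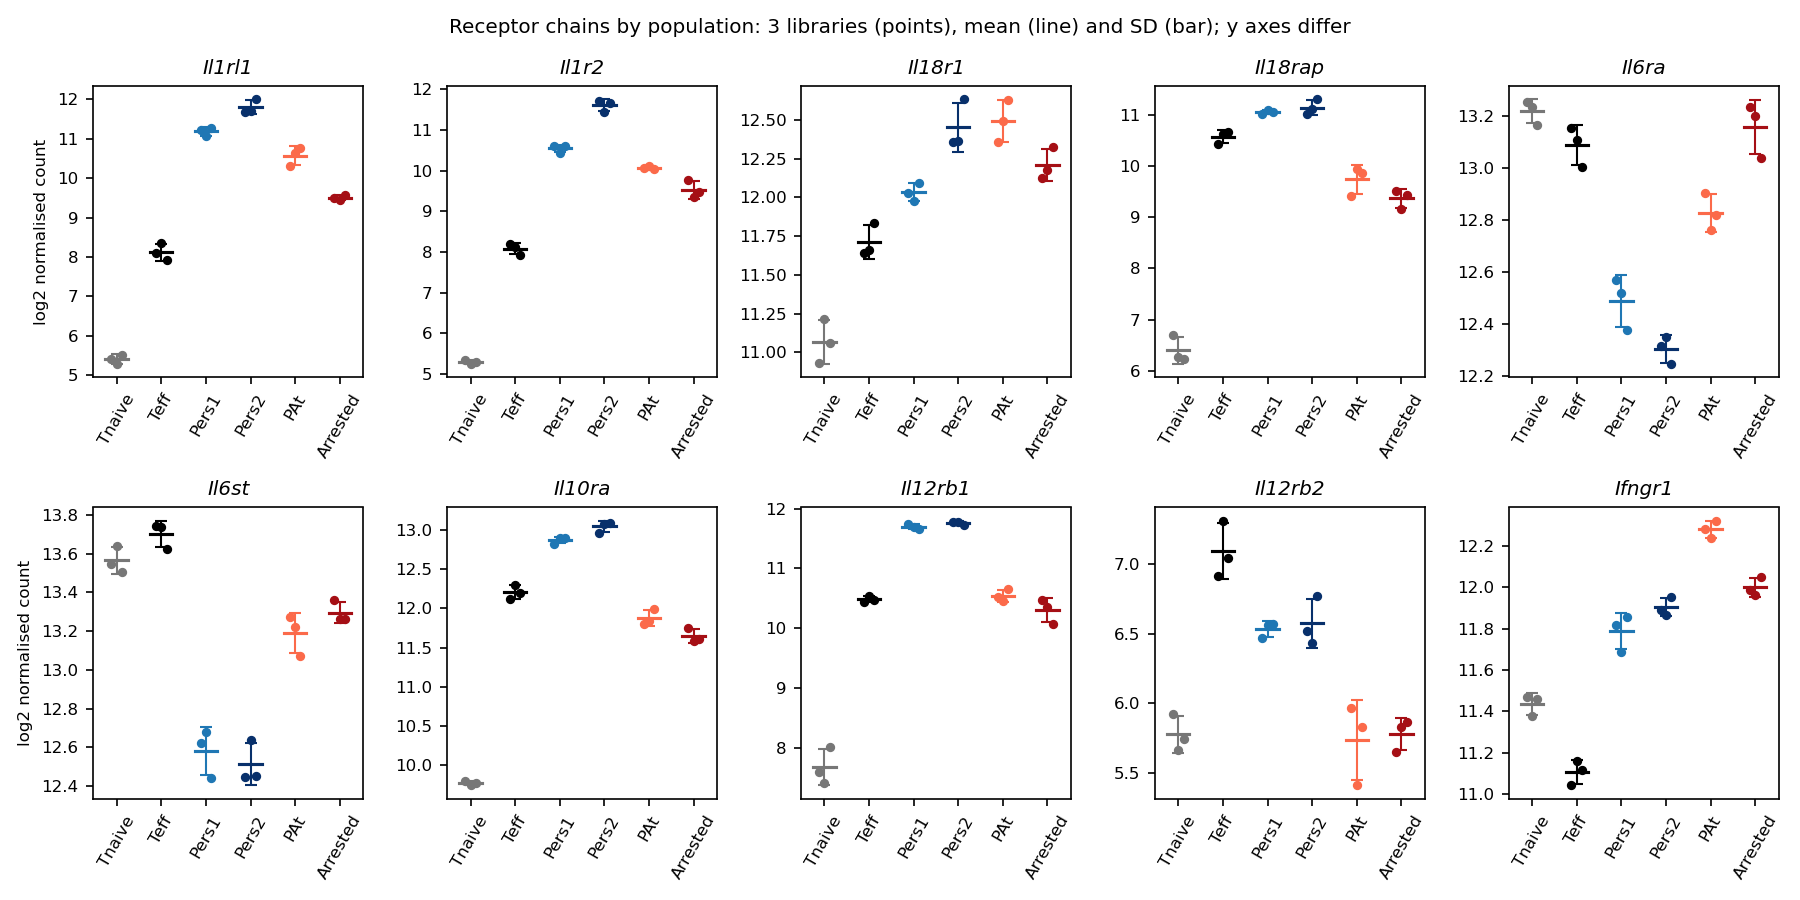
Log2 normalised count (y axis, a different range in each panel) of the 10 receptor chains in the 6 populations (x axis), with points for the 3 libraries, a line at the mean and a bar of 1 SD. Il1rl1 climbs from a mean of 5.41 in Tnaive to 11.79 in Pers2, while Il6ra is lowest in Pers2, at 12.30.

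Per kilobase of exon, the receptors with the highest level differed between populations. The length used merges all annotated exons of a gene (1.908 kilobases for Il1r2, 11.099 for Il6st) and is not that of the transcripts expressed. The order of chains within a population is therefore approximate. By the deposited values, Il1r2 (11.62) lay below Il6st (12.51) in Pers2. In Tnaive the order was led by Il6ra (10.11), Il6st (10.09) and Ifngr1 (9.93) on the scale of log2 value per kilobase, and closed by Il18rap (3.65) and Il1rl1 (2.63). In Teff, Il10ra led with 10.40 and Il12rb2 was last with 5.16. In Pers2, Il10ra led with 11.24 and Il1r2 followed with 10.68, whereas Il12rb2 was last with 4.65. In PAt the order was led by Ifngr1 (10.77) and Il18r1 (10.22). In Arrested it was led by Ifngr1 (10.49) and Il6ra (10.05). Il12rb2 was last in all populations but Tnaive, where it was the third from the bottom with 3.86.

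Il1rl1 encodes the receptor of the alarmin IL-33. Its log2 values were 5.43, 5.29 and 5.52 in the Tnaive libraries and 8.10, 8.34 and 7.92 in Teff. They were 11.22, 11.06 and 11.28 in Pers1, and 11.68, 11.71 and 11.998 in Pers2. The PAt libraries had 10.29, 10.64 and 10.76, and the Arrested libraries 9.50, 9.44 and 9.56. No population overlapped with its neighbour in this order. Il1r2, the decoy receptor of IL-1, had 5.35, 5.25 and 5.31 in Tnaive, and 8.20, 8.13 and 7.92 in Teff. Pers1 had 10.60, 10.44 and 10.61, and Pers2 11.73, 11.46 and 11.67. Values were 10.06, 10.13 and 10.03 in PAt and 9.77, 9.35 and 9.48 in Arrested. The populations stood in the same order as for Il1rl1, again with no overlap between neighbours. The means of 231 of the 13190 tested genes (1.75%) had this order, and 21 genes (0.159%) had it with no overlap between neighbours, of which Il1rl1 and Il1r2 are 2.

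Il1rl1 and Il1r2 lie in the same cluster of IL-1 receptor genes on chromosome 1 (GRCm38), both on the + strand. Il1r2 spans 40074079 to 40125231 and Il1rl1 spans 40429570 to 40465415. Their promoter windows, from 250 bases before to 50 after a RefSeq transcript start, are shown because the levels of these genes moved together over the populations. Il1rl1 has 2 such starts, and the gene's value does not separate them. Il1r2 has 1 such start, which lies inside the span given above. GENCODE vM21 annotates 4 transcripts of Il1r2, which its value does not separate either. The sequences are from RefSeq (GRCm38.p6), 5′ to 3′ on the + strand, at chr1:40429320-40429619 and chr1:40439379-40439678 for Il1rl1 and chr1:40085843-40086142 for Il1r2. Capitals mark a match to 1 of 3 motifs.
Il1rl1 first start: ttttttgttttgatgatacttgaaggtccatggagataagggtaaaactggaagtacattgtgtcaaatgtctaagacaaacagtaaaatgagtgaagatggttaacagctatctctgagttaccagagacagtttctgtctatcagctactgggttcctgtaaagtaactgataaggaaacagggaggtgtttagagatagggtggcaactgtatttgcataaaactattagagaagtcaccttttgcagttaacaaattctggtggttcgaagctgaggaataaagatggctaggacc
Il1rl1 second start: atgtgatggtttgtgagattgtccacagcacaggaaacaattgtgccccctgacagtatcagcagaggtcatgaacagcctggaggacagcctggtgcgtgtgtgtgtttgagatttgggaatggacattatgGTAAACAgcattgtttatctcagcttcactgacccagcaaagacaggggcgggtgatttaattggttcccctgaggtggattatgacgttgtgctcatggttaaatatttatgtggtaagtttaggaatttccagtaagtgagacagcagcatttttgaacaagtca
Il1r2: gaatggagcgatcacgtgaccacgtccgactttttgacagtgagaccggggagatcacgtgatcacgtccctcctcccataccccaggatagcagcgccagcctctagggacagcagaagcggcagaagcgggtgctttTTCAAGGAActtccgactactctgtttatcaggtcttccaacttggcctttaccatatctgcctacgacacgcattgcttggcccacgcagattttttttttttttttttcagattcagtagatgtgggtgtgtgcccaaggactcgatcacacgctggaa

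The motifs were searched on both strands, as AP-1 (TGANTCA), the STAT motif GAS (TTCNNNGAA) and the forkhead motif (TGTTTAC). A forkhead match lay 117 bases before the second Il1rl1 start, on the strand opposite to the gene, and a GAS match lay 111 bases before the Il1r2 start. The first Il1rl1 window held none of the 3 motifs. Of 32851 RefSeq mouse windows of this length, 3.65% held the forkhead motif, 8.30% GAS and 7.81% AP-1. The matches describe letters in these windows and nothing about binding. Of the 10 receptor genes, 8 had a window. Beyond Il1r2, GAS matches lay in 1 of the 3 Il18r1 windows, at 219 and 152 bases before the start, and in the Il12rb2 window at 123 bases before it.

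The IL-1 receptor cluster did not move as a block. From Map4k4 to Tmem182 (chromosome 1, 39900913 to 40856887, 955975 bases) GENCODE vM21 annotates 20 genes, of which 10 were in the table and 9 were tested. Il1r1, the signalling receptor of IL-1 that lies between Il1r2 and Il1rl1, was at 8.33 ± 0.23 (SD, n = 3) in Teff, 4.45 ± 0.19 in Tnaive and 4.67 to 5.66 in the means of the Timer+ populations. Il1rl2, the receptor of IL-36, was at 8.68 ± 0.14 in Tnaive and 8.69 ± 0.06 in Teff, and at 5.87 to 6.30 in the Timer+ populations. The neighbours on either side of Il1rl2 were highest in different populations. Markers of several other cell types were also higher in Teff, as given above, and their part in the Il1r1 value was not tested. Il1r1 was called higher in Teff than in Tnaive (log2 fold change 3.88, SE 0.17, adjusted p = 3.6e-14), and with PAt and Arrested as the reference it stood 0.82 higher in Pers1 and Pers2 (SE 0.12, adjusted p = 4.0e-06), under the fold limit.

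The genes that flank the receptors differed less. Map4k4, a kinase gene, ranged from 13.05 in Pers2 to 13.94 in Teff, and Mfsd9, a transporter family gene, from 5.69 in Pers1 to 6.21 in Tnaive. Slc9a2, a sodium-proton exchanger gene, had means of 0.50 to 0.57 and was not tested. Slc9a4 and Tmem182 were not analysed here. The antisense transcript Gm16894 lies within the span of Il1r2 on the opposite strand and shares no exon positions with it in GENCODE vM21. This transcript reaches to position 40085851, inside the Il1r2 promoter window printed above. It had means of 3.77 in Tnaive and 4.68 in Pers2. The annotation used for the counting and its assignment of reads to strands are not stated in the sources used here. Whether reads of Gm16894 and Il1r2 were fully separate is therefore unknown.

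**Figure D2:**
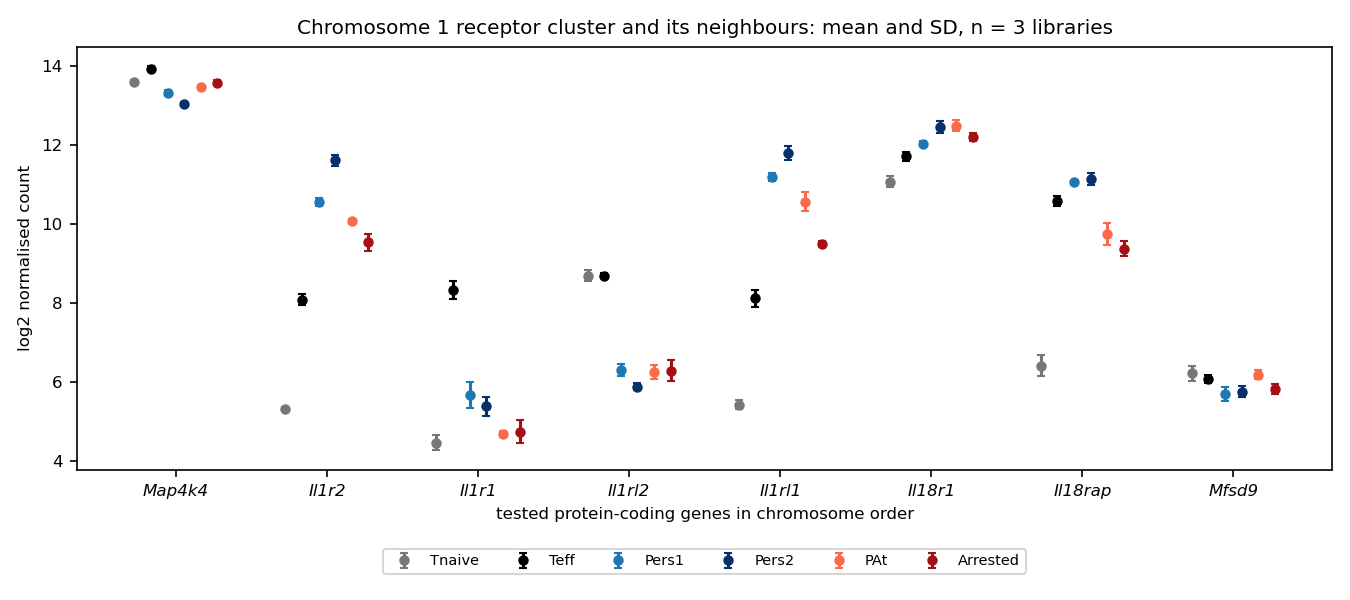
Mean log2 normalised count (y axis, bars of 1 SD, n = 3) of the 8 tested protein-coding genes from Map4k4 to Mfsd9, in chromosome order (x axis), with a colour for each population. Il1r1 stands out in Teff at 8.33, between Il1r2 and Il1rl1, which are highest in Pers2 at 11.62 and 11.79.

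The next genes in the cluster encode the IL-18 receptor. Il18r1 (chromosome 1, 40465552 to 40500854, + strand) starts just after Il1rl1 ends. Its log2 values were 10.93, 11.21 and 11.06 in Tnaive, and 11.64, 11.66 and 11.84 in Teff. In Pers1 they were 12.03, 11.98 and 12.09, and in Pers2 12.36, 12.36 and 12.63. In PAt they were 12.36, 12.49 and 12.63, and in Arrested 12.13, 12.18 and 12.33. PAt and Pers2 overlapped, and the other neighbours in the order did not, although the means of the Timer+ populations stayed within 12.03 to 12.49. Il18rap (40515362 to 40551705, + strand), whose product is needed for the signal, had 6.71, 6.27 and 6.22 in Tnaive, and 10.44, 10.64 and 10.66 in Teff. Pers1 had 11.02, 11.09 and 11.07, and Pers2 11.02, 11.11 and 11.31. The PAt libraries had 9.42, 9.94 and 9.87, and the Arrested libraries 9.52, 9.16 and 9.43. The persistent populations overlapped with each other, as did PAt and Arrested, and the accessory chain varied more over the populations (range of means 4.75) than the ligand-binding chain (1.42).

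The IL-6 receptor chains were the most highly expressed of the 10 per kilobase in Tnaive. Il6ra (chromosome 3, 89864059 to 89913196, - strand) had 13.26, 13.23 and 13.17 in Tnaive, and 13.15, 13.11 and 13.004 in Teff. In Pers1 it had 12.57, 12.52 and 12.38, and in Pers2 12.32, 12.35 and 12.25. Values were 12.90, 12.76 and 12.82 in PAt and 13.24, 13.20 and 13.04 in Arrested. Arrested overlapped with Tnaive and with Teff, and both persistent populations were below all others. Il6st (chromosome 13, 112464070 to 112510086, + strand), the chain shared by the IL-6 family, had 13.55, 13.64 and 13.51 in Tnaive, and 13.74, 13.74 and 13.62 in Teff. Pers1 had 12.62, 12.68 and 12.44, and Pers2 12.45, 12.64 and 12.45. In PAt it had 13.27, 13.22 and 13.07, and in Arrested 13.36, 13.26 and 13.26. Here too the 6 persistent libraries lay below the other 12, and Teff and Tnaive overlapped. An exon of Il6ra overlaps the antisense transcript Gm42809, so the share of its reads from the other strand is unknown.

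Il10ra (chromosome 9, 45253837 to 45269149, - strand) encodes the chain that binds IL-10. Its log2 values were 9.80, 9.74 and 9.77 in Tnaive, and 12.12, 12.30 and 12.19 in Teff. In Pers1 they were 12.82, 12.89 and 12.89, and in Pers2 12.96, 13.08 and 13.10. The PAt libraries had 11.80, 11.84 and 11.997, and the Arrested libraries 11.75, 11.58 and 11.61. All neighbours in the order were separate, from Pers2 through Pers1, Teff, PAt and Arrested to Tnaive. Il12rb1 (chromosome 8, 70808449 to 70821424, + strand), the chain common to the IL-12 and IL-23 receptors, had 7.60, 7.41 and 8.002 in Tnaive, and 10.44, 10.54 and 10.47 in Teff. Pers1 had 11.74, 11.69 and 11.65, and Pers2 11.78, 11.78 and 11.72. Values were 10.52, 10.45 and 10.65 in PAt and 10.46, 10.36 and 10.07 in Arrested. The 6 persistent libraries were above all others, and Teff, PAt and Arrested overlapped.

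Il12rb2 (chromosome 6, 67291318 to 67376188, - strand), the IL-12 chain associated with type 1 cells, was low throughout. It had 5.93, 5.67 and 5.75 in Tnaive, and 6.91, 7.31 and 7.04 in Teff. In Pers1 it had 6.47, 6.56 and 6.57, and in Pers2 6.52, 6.43 and 6.77. In PAt it had 5.97, 5.41 and 5.83, and in Arrested 5.65, 5.83 and 5.87. Teff stood above the persistent populations, which stood above the overlapping values of PAt, Arrested and Tnaive. Il12rb2 shares exon positions with the protein-coding gene Serbp1 on the opposite strand, so the share of its reads from that strand is unknown. Ifngr1 (chromosome 10, 19591949 to 19610229, + strand), the ligand-binding chain for interferon gamma, had 11.47, 11.38 and 11.46 in Tnaive, and 11.04, 11.16 and 11.12 in Teff. Pers1 had 11.82, 11.69 and 11.85, and Pers2 11.89, 11.87 and 11.95. The PAt libraries had 12.28, 12.23 and 12.32, and the Arrested libraries 11.99, 11.96 and 12.05. The populations were narrowly separate, in the order PAt, Arrested, Pers2, Pers1, Tnaive and Teff.

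The first comparison asked how the chains differed between activated and naive cells without Foxp3 reporter. In Teff, 6 of the 10 chains were called higher than in Tnaive and none lower. Over all tested genes 8.88% were called higher and 2.28% lower. The 6 were Il18rap (log2 fold change 4.18, SE 0.13, adjusted p = 1.8e-16, an 18.1-fold difference), Il12rb1 (2.81), Il1r2 (2.78), Il1rl1 (2.71), Il10ra (2.44) and Il12rb2 (1.31, SE 0.14, adjusted p = 6.3e-08). After quantile normalization Il12rb2 was at 0.86, under the fold limit. Il18r1, the partner of Il18rap, was 0.64 higher (adjusted p = 1.4e-06) and Ifngr1 was 0.33 lower (adjusted p = 1.6e-05), both under the fold limit. For Il6ra (-0.13, adjusted p = 0.072) and Il6st (0.14, adjusted p = 0.089) the difference did not pass the test. The libraries did not overlap for 9 of the 10 chains, against 64.9% of all tested genes. The median over the chains was 1.87, and that of all tested genes 0.0047.

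Other receptor genes were called in Teff against Tnaive too. Of 16 other class I and class II cytokine receptor chains tested, 5 were called higher, namely Lifr (2.93), Il13ra1 (1.48) and the GM-CSF receptor chains Csf2rb (4.75), Csf2rb2 (5.51) and Csf2ra (1.69). Ifngr2, the second chain of the interferon gamma receptor, was called lower (-1.47). Csf2rb and Csf2ra are also expressed by myeloid cells, whose markers were higher in Teff, as given above. Of 6 Janus kinases and STATs, Jak2 alone was called higher (1.53, SE 0.05), and none of 10 MyD88 pathway genes was called, with 4 higher and 1 lower at an adjusted p under 0.05, where 31.3% of all tested genes were higher and 27.7% lower.

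The comparison at the centre of the design set the persistent populations, with intermediate or high Blue, against PAt and Arrested, with low or no Blue. Of the 10 chains, 5 were called higher in the persistent populations and none lower. Over all tested genes, 4.74% were called higher and 2.77% lower. The chains were Il18rap (1.55, SE 0.09, adjusted p = 5.9e-12, a 2.92-fold difference), Il1rl1 (1.46, SE 0.09, adjusted p = 2.9e-12), Il12rb1 (1.31, SE 0.08, adjusted p = 3.7e-12), Il1r2 (1.28, SE 0.07, adjusted p = 2.1e-12) and Il10ra (1.19, SE 0.04, adjusted p = 1.1e-15). Il12rb2 was 0.79 higher (adjusted p = 3.9e-07), under the fold limit.

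The IL-6 receptor chains differed the other way in this comparison. Il6st was 0.70 lower in the persistent populations (95% interval of the fold change -0.80 to -0.60, adjusted p = 3.6e-11) and Il6ra 0.60 lower (-0.69 to -0.51, adjusted p = 8.2e-11). Ifngr1 was 0.29 lower (adjusted p = 4.7e-07). These 3 differences were under the fold limit. Il18r1 did not pass the test (-0.11, 95% interval -0.24 to 0.02, adjusted p = 0.11). The 6 persistent libraries lay all above or all below the 6 others for 9 of the 10 chains, against 45.8% of all tested genes. The median over the chains was 0.99, and that of all tested genes -0.013.

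**Figure D3:**
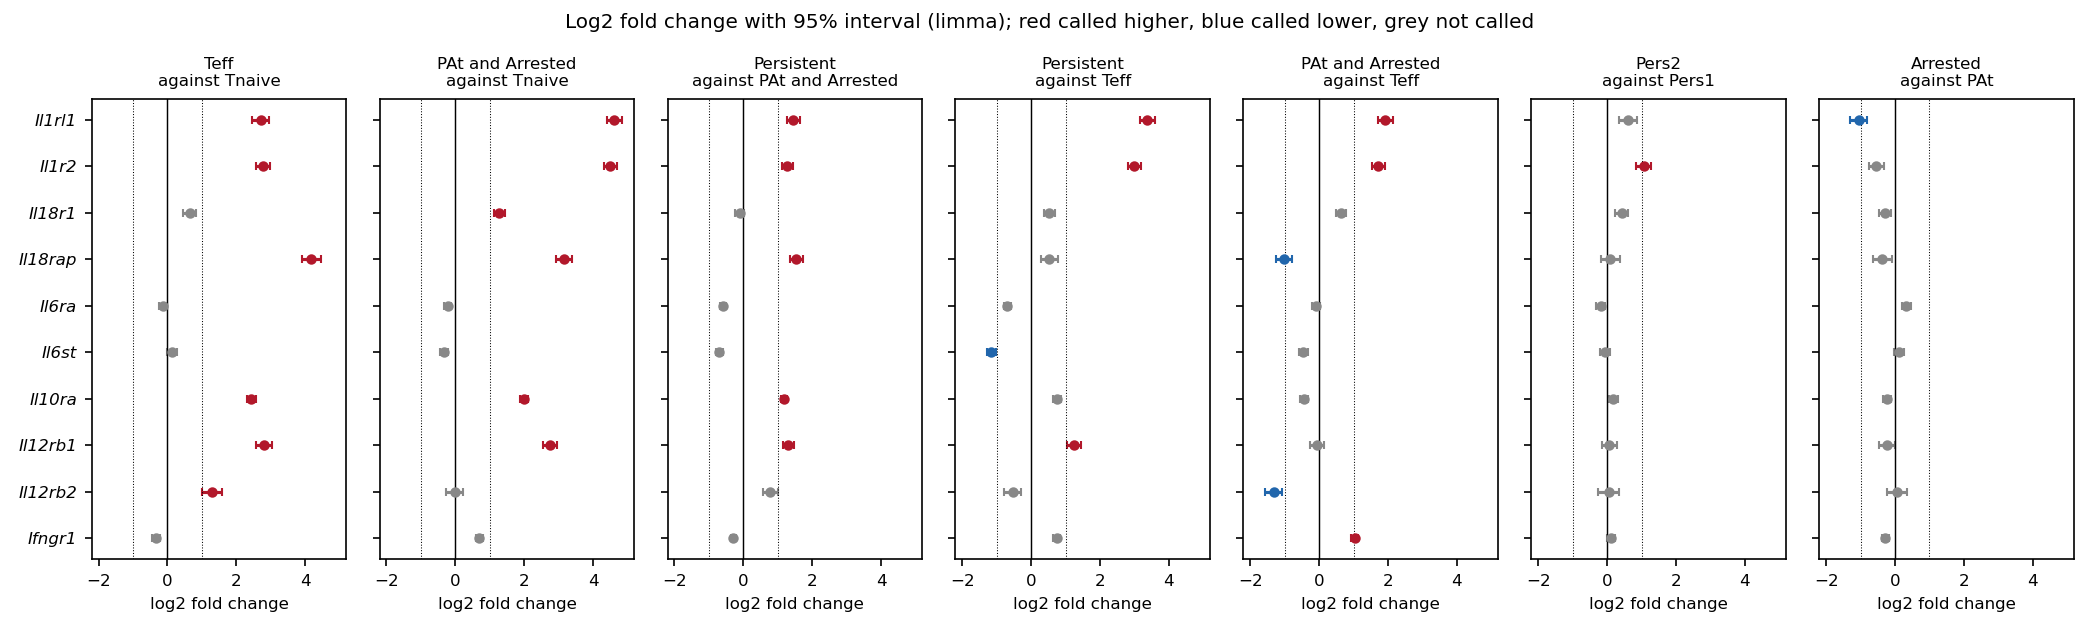
Log2 fold change (x axis) of the 10 receptor chains (rows) in 7 comparisons (panels), with 95% intervals from limma, dotted lines at the fold limit, red for called higher, blue for called lower and grey for not called. In the persistent populations against PAt and Arrested, 5 chains are red and none is blue, and Il6ra and Il6st lie to the left of 0.

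Among the other genes of these pathways, few were called in this comparison. None of the 6 other IL-1 family receptors and regulators tested, none of 10 MyD88 pathway genes, none of 6 Janus kinases and STATs and neither of the receptor sheddases Adam10 and Adam17 was called. At an adjusted p under 0.05 without the fold limit, 3 MyD88 pathway genes were higher and 5 lower, 1 Janus kinase or STAT was higher and 2 lower, both sheddases were higher, and 2 IL-1 family genes were higher and 1 lower. Over all tested genes 35.9% were higher and 35.1% lower at this threshold. Of the 16 other receptor chains, Ifngr2 (-1.20, SE 0.06, adjusted p = 1.1e-13) and Il11ra1 (-1.04), which encodes the IL-11 receptor, were called lower and none higher. Of 10 tested ligands of these receptors, Il10 was called higher (2.26, SE 0.13, adjusted p = 2.0e-12) and Clcf1, a ligand of the IL-6 family, lower (-1.54).

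Of 9 tested lineage factors linked to these receptors, 5 were called higher in the persistent populations and none lower. In Teff against Tnaive 7 of the 9 were called higher and 1 lower, and in the persistent populations against Teff 1 was called higher and 2 lower. The 5 were Prdm1 (2.97, the gene of Blimp-1), Maf (2.19), Tbx21 (1.59, the gene of T-bet, the type 1 factor), Irf4 (1.43) and Batf (1.28). Bcl6 (-0.94) and Eomes (-0.91) were lower under the fold limit, and Gata3 (0.53) was higher under it. Of 14 interferon gamma response genes, Socs1, a feedback inhibitor, was called lower (-1.44) and no other was called. Of 9 STAT3 response genes, Ahr was called higher (1.82) and Fos lower (-1.46). Markers of other cells moved in this comparison as well. Of 7 B cell markers 3 were called lower in the persistent populations, among them Ms4a1 (-1.11) and Cd79a (-1.14), as was 1 of the 2 Cd8 genes. Called higher were 1 of 7 tested macrophage and monocyte markers and 1 of 7 tested markers of NK and innate lymphoid cells. Their part in the receptor values was not tested.

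Against Teff, the persistent populations had 3 chains called higher and 1 lower, while 4.28% of all tested genes were called higher and 4.03% lower. Il1rl1 was 3.37 higher (SE 0.10, adjusted p = 1.6e-16, a 10.3-fold difference) and had the rank 13 among 13190 fold changes. Il1r2 was 3.00 higher (SE 0.09) with the rank 20, and Il12rb1 was 1.24 higher. Il6st was called lower (-1.15, SE 0.06, adjusted p = 4.5e-13). Il10ra (0.75), Ifngr1 (0.74), Il18r1 (0.53) and Il18rap (0.52) were higher and Il6ra (-0.69) and Il12rb2 (-0.54) lower under the fold limit. All 10 chains were separate between these libraries, against 49.0% of all tested genes. Jak2 (-1.31), Il1r1 (-2.81) and Il1rl2 (-2.60) were called lower, as were Lifr and both beta chains Csf2rb and Csf2rb2.

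PAt and Arrested were compared with Tnaive and with Teff, and these comparisons share libraries with those above. Against Tnaive, 6 chains were called higher and none lower, with 6.63% and 1.27% of all tested genes. Il1rl1 was 4.62 higher (SE 0.10, adjusted p = 5.0e-19) and Il1r2 4.50 higher (SE 0.09, adjusted p = 6.7e-20), with ranks 13 and 18 among the fold changes of all tested genes. Il18rap (3.16), Il12rb1 (2.75), Il10ra (2.00) and Il18r1 (1.28) were the others. Under the fold limit, Ifngr1 was 0.70 higher, and Il6st (-0.32, adjusted p = 9.3e-05) and Il6ra (-0.23, adjusted p = 0.0012) were lower. Il12rb2 did not pass the test (-0.02, 95% interval -0.27 to 0.23, adjusted p = 0.91), in contrast to its call in Teff. The libraries were separate for 8 chains, against 41.9% of all tested genes. All 7 B cell markers were called higher in PAt and Arrested as well (median 1.83), with summed levels of 11.79 to 12.38 against 9.86 to 10.39 in Tnaive, and their part in the receptor values was not tested.

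Against Teff, 3 chains were called higher in PAt and Arrested and 2 lower, with 2.84% and 4.04% of all tested genes. The higher chains were Il1rl1 (1.91), Il1r2 (1.72) and Ifngr1 (1.03, SE 0.05, adjusted p = 5.6e-14). The lower chains were Il12rb2 (-1.33, SE 0.12, adjusted p = 7.3e-09) and Il18rap (-1.02, SE 0.12, adjusted p = 1.9e-07). Il18rap lay at the fold limit and lost its call when any 1 of 4 libraries was left out (Teff replicate 2 or 3, PAt replicate 1 or Arrested replicate 2), at -0.99 to -0.94. For Il12rb1 the difference was -0.07 (95% interval -0.27 to 0.13, adjusted p = 0.58). The libraries were separate for 8 chains, against 41.0% of all tested genes. Of 14 interferon gamma response genes 5 were called higher in PAt and Arrested, namely Socs1, Gbp3, Gbp5, Irgm2 and Iigp1, and none lower.

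Within the pairs of Timer+ populations few genes were called. In Pers2 against Pers1, 0.144% of all tested genes were called higher and 0.0455% lower, and Il1r2 was the only chain called (1.07, SE 0.10, adjusted p = 1.4e-06, higher in 3 of 3 libraries). It had the rank 15 of the fold changes. Il1rl1 was 0.61 higher (adjusted p = 0.0024) and Il18r1 0.42 higher (adjusted p = 0.0030), under the fold limit. The other 7 chains did not pass the test. Libraries were separate for 6 chains, against 31.9% of all tested genes.

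In Arrested against PAt, 0.0455% of all tested genes were called higher and 0.0758% lower. Il1rl1 was the only chain called, at 1.06 lower in Arrested on the log2 scale (95% interval -1.31 to -0.81, adjusted p = 1.6e-05). Without PAt replicate 3 the log2 fold change was -0.96, under the fold limit. Il1r2 was 0.54 lower (adjusted p = 0.0031), Ifngr1 0.28 lower (adjusted p = 0.0027), Il10ra 0.23 lower (adjusted p = 0.029) and Il6ra 0.33 higher (adjusted p = 0.0022). Libraries were separate for 6 chains, against 18% of all tested genes (2370 of 13190).

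The chains of 1 receptor did not keep a fixed ratio. The level of a difference between chains depends on the merged exon lengths, and its shift between populations does not. Per kilobase of exon, Il18r1 exceeded Il18rap by 5.15 ± 0.39 (SD, n = 3) on the log2 scale in Tnaive, and by 1.62 ± 0.10 in Teff, 1.46 ± 0.08 in Pers1 and 1.79 ± 0.05 in Pers2. The difference was wider in PAt (3.23 ± 0.19) and Arrested (3.33 ± 0.21). Il12rb2 was below Il12rb1 in every population, by 1.78 in Tnaive, 3.28 in Teff and 4.40 to 5.08 in the Timer+ populations. Il6ra and Il6st stayed close to each other, with differences of -0.25 to 0.27.

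The partners that are not among the 10 chains changed in their own ways. Differences between chains given here are per kilobase of exon, whereas levels of single genes are deposited log2 values. Il1rap, the accessory chain of ST2, kept means of 9.32 to 9.56 in all populations. The difference of Il1rl1 from Il1rap went from -3.33 ± 0.10 in Tnaive to 3.10 ± 0.24 in Pers2. Il10rb rose in PAt and Arrested against Tnaive (1.02), and Il10ra exceeded it by 2.35 ± 0.09 in Pers2 and 0.62 ± 0.13 in Arrested, while it was 0.31 below it in Tnaive. Ifngr2 was at 9.71 to 9.86 in Teff and the persistent populations and at 10.95 to 11.33 in the others. Ifngr1 exceeded it by 0.51 ± 0.04 in Tnaive and by 2.48 ± 0.11 in Pers1 and 2.49 ± 0.10 in Pers2. Exons of Il10rb overlap those of Gm21970 on the same strand, and exons of Il1rap those of the antisense Gm20319, so their levels are less certain.

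**Figure D4:**
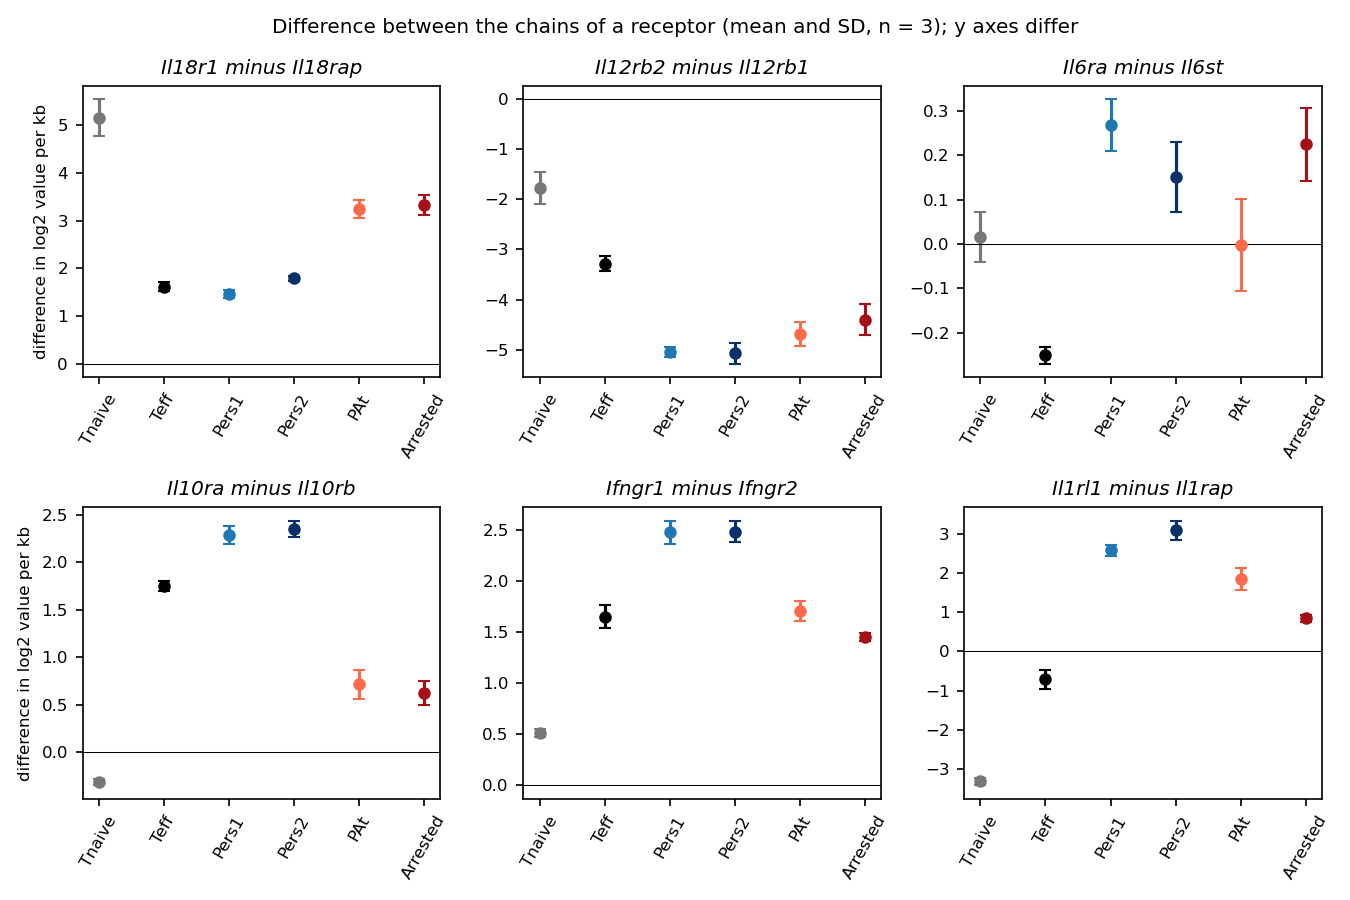
Difference in log2 value per kilobase of exon between the chains of a receptor (y axis, a different range in each panel) in the 6 populations (x axis), with points for means of 3 libraries and bars of 1 SD. The IL-18 receptor chains lie 5.15 apart in Tnaive and 1.46 apart in Pers1, and Il1rl1 crosses its accessory chain between Teff and Arrested.

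Whether the step from PAt and Arrested to the persistent populations was as large as the step from Tnaive to Teff was tested as a difference between the 2 fold changes. For 5 chains the step was smaller among the Timer+ populations by more than the fold limit, and for none was it larger, with 1.52% of all tested genes higher and 6.90% lower. Il18rap differed most among the chains (-2.63, SE 0.16, adjusted p = 2.3e-11). Il12rb1 (-1.50), Il1r2 (-1.50), Il1rl1 (-1.25) and Il10ra (-1.24) were the others. After quantile normalization Il1rl1 was at -0.96, under the fold limit. The steps of Il6st (-0.83, adjusted p = 3.7e-08), Il18r1 (-0.75, adjusted p = 4.4e-06), Il12rb2 (-0.52, adjusted p = 0.016) and Il6ra (-0.47, adjusted p = 2.5e-05) differed under the fold limit. That of Ifngr1 did not pass the test (0.04, 95% interval -0.10 to 0.17, adjusted p = 0.67). The Teff step includes the markers of other cells given above.

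For the 5 chains whose population means ranged over more than 2 on the log2 scale, the genes with the most similar pattern over the 18 libraries were sought among all tested genes. The libraries fall into 6 populations, so these coefficients describe the likeness of patterns over few distinct points. Il1rl1 was most like Lclat1 (Pearson r = 0.996), Tnfrsf4 (0.993), the gene of OX40, and Il1r2 (0.992), and Il1r2 was most like Tnfrsf4 (0.994), Lclat1 (0.993) and Il1rl1 (0.992). Il18rap was most like Gcnt1 (0.994), Ttc39c (0.993) and Prr13 (0.992). Il10ra was most like Lpxn (0.994), Atp6v0a1 (0.994) and Tmbim1 (0.994), and Il12rb1 was most like Atp6v0a1 (0.995), with Csf1 (0.990) also among the closest.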

How the data were processed

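RNA-seq was performed on 18 libraries of 6 sorted populations, with groups taken from the sample titles. The authors prepared stranded mRNA libraries, sequenced 100 bp paired-end reads and aligned them to mm10. The submitters' processing notes name CASAVA 1.8.2, FastQC 0.11.2, TopHat2 2.0.9 and DESeq2. The read counter and its annotation are not given in the sources used here. The authors deposited log2 normalised counts, whose form is that of the regularised log transform of DESeq2, which draws changes of genes with few reads towards 0. Without counts the depth is unknown, and precision rests on the spread between libraries.

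The values were used as deposited, with no pseudocount. The 13190 genes with a mean of at least 3 were fitted in 1 model of 6 populations with limma 3.58.1 in R 4.3.3 (trended variance moderation, 12 residual degrees of freedom, Benjamini-Hochberg adjustment), which was tested on simulated data, and 2212 genes were left out. The receptor chains and gene lists were chosen with earlier results of these data known. Named genes are the 10 chains, listed genes called in a comparison or pairing with a chain, the genes annotated from Map4k4 to Tmem182, and the 3 tested genes most like each chain whose means ranged over more than 2. Some genes that this rule names are not reported here. Summed marker levels are log2 of the sum of unlogged values. Values per kilobase subtract log2 of the merged exon length in GENCODE vM21. Replicates of a population differed by 0.144 to 0.255 (root mean square, log2), and no gene had identical values in a pair.

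Replicate numbers were taken to pair the libraries, since the deposited design has the populations sorted from the same mice, although neither source states that a number marks 1 pool. Deviations from population means correlated at a median of 0.17 (-0.21 to 0.44, 32 of 45 above 0.1) for libraries with the same number and -0.064 for the 90 pairs with different numbers. The fit without the block is reported. Alternatives were other filters, no trend, only the compared populations, the replicate block, quantile normalization, median centring, no fold limit, and leaving out each library.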

Additional observations from a re-analysis of the deposited data

Results flagged for a closer look

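For 5 chains the step from PAt and Arrested to the persistent populations differed from the step from Tnaive to Teff, by limma's test of the difference between the 2 log2 fold changes over all tested genes. The differences were -1.25 for Il1rl1 (adjusted p = 5.0e-07), -1.50 for Il1r2 (adjusted p = 3.5e-09), -2.63 for Il18rap (adjusted p = 2.3e-11), -1.24 for Il10ra (adjusted p = 1.2e-11) and -1.50 for Il12rb1 (adjusted p = 8.0e-09). After quantile normalization the difference of Il1rl1 was -0.96, under the fold limit. Both steps were upward in all 5 chains. With 3 libraries in each population, single libraries were not examined for distance from the others of their population.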

How the results depend on the processing

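Counts of called chains stayed within 1.5 times the reported count under all alternatives other than those given here. With no limit on the fold change, 9 chains passed in the persistent populations against PAt and Arrested (5 with the limit), 10 against Teff (4), 8 in PAt and Arrested against Teff (5), 3 in Pers2 against Pers1 (1), 5 in Arrested against PAt (1) and 9 for the difference between the steps (5). Of all tested genes, 70.9%, 58.7%, 52.7%, 10.6%, 5.04% and 48.7% passed in these comparisons without the limit. Leaving out single libraries gave 0 to 1 called chains in Arrested against PAt, with 0 without PAt replicate 3. The replicate block changed no call of a chain, with 6 called in Teff against Tnaive, 5 in the persistent populations against PAt and Arrested and 1 in Arrested against PAt. Quantile normalization moved the median of all genes in Teff against Tnaive from 0.0047 to -0.10. It took the call from Il12rb2 there (0.86, adjusted p = 2.0e-05) and from Il1rl1 in the difference between the steps (-0.96), and turned Il12rb2 to -0.019 in Pers2 against Pers1. Leaving out single libraries turned Il12rb2, which was not called in these comparisons, with ranges of -0.056 to 0.11 in Pers2 against Pers1, -0.075 to 0.063 in PAt and Arrested against Tnaive and -0.12 to 0.16 in Arrested against PAt. The cause of these changes was not tested, apart from the fold limit. With 3 libraries a population and no counts, small differences of low genes such as Il12rb2 cannot be resolved.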
